A study of Arabidopsis thaliana with 4 samples.

Results

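Cytochrome P450 genes were described in Arabidopsis thaliana seedlings, taking each probe set whose single annotated gene has a symbol made of CYP, a family number and a subfamily letter. The rule gave 23 genes with 1 probe set each, of 22746 probe sets tested, and it used no measured value. The reference gene table (TAIR10.1) lists 236 genes with such a symbol, so most of the family has no value of its own here. The annotation gives no gene for 8730 of the 22746 probe sets, so a gene without a value here may still have been read. Of the 23 genes, 19 belong to the subfamily CYP71B, and the other 4 are CYP51G2, CYP78A9, CYP79A2 and CYP84A4.

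Whole 10-day-old seedlings of ecotype Col-0 were compared, 2 wild type samples and 2 samples of OsRR6ox, a transgenic line that overexpresses the rice response regulator gene OsRR6. Seedlings of both genotypes grew on MS medium in white light with long days and received no treatment. No source used here names the promoter that drives OsRR6 or the number of independent transgenic lines. Each sample was labelled a biological replicate and read on 1 Affymetrix array. Nothing says how the replicates were grown apart, so the p-values below reflect only how far these samples vary. All values below are on the log2 scale as deposited, where a difference of 1 is a 2-fold change.

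Cytochrome P450 enzymes are haem proteins that insert oxygen into small molecules, usually at the membrane of the endoplasmic reticulum, with electrons passed on by a reductase. Plants hold large P450 families that make and break down hormones, sterols, pigments, cutin, lignin precursors and defence compounds. Subfamilies such as CYP71B have grown by local duplication, so that close relatives lie side by side. A well-studied CYP71B gene is CYP71B15 (PAD3), which acts in the last steps of the synthesis of camalexin, a phytoalexin. For most CYP71B genes the substrate is not firmly known.

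As a check of the tissue, the photosynthetic markers LHCB4.1, LHCB4.2 and LHCB4.3 (3 of 11 on their list measured) had array means of 11.46 and 11.71 in wild type seedlings against 11.54 and 11.61 in OsRR6ox. Within that list the genes went apart, with LHCB4.3 passing as lower at -1.41, LHCB4.2 at 1.20 and LHCB4.1 at 0.17 short of the threshold. The root list (3 of 7 measured) gave means of 8.97 and 9.22 in the wild type against 9.78 and 9.94 in OsRR6ox, with EXPA7 passing the test as higher, EXPA18 at 1.11 and PYK10 at -0.21. The anther list (2 of 4 measured) lay at array background, taken here as the dimmest 25% of probe sets of an array, on every array, and the seed list (2 of 3 measured) at 5.38 to 5.62 in wild type seedlings against 4.81 to 5.15 in OsRR6ox. In whole seedlings, fewer cells of a type and less RNA per cell cannot be told apart. In 5 of 6 array control sets for RNA length, the signed 3′ minus 5′ signal was lower on both OsRR6ox arrays than on either wild type array. It was nearer to 0 there in 3 of these sets, and further from 0 in the 2 GAPDH sets, which were negative on all arrays. The part of organ proportions or RNA length in any P450 difference below was not tested.

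The genotypes were compared to find transcripts whose level differs when this regulator is overexpressed. Among the P450 genes CYP71B34 rose, from array background in the wild type to well above it in OsRR6ox. Its neighbour CYP71B26 was higher by 1.32 and CYP71B6 and CYP71B23 differed by -0.82 and -0.86, but these 3 did not pass the test. The remaining 19 genes differed by less than 0.5 in either direction. Thus 1 of 23 genes passed (limma, Benjamini-Hochberg adjusted p under 0.05 over all probe sets), and it was a rise. Over all probe sets 1.30% passed, and 0.813% passed as rises, so the single call is a result about CYP71B34 and not about the P450 genes as a group.

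CYP71B34 (AT3G26300) read 3.91 and 3.52 in wild type seedlings against 7.50 and 6.84 in OsRR6ox. Both wild type values lie at array background, and neither OsRR6ox value does. The genotypes did not overlap, and their means were further apart than either pair of replicates, which differed by 0.39 and 0.67. The mean went from 3.72 ± 0.28 to 7.17 ± 0.47 (SD, n = 2 each). The difference was 3.45 with a standard error of 0.27 (limma adjusted p = 0.0127), the 23rd largest rise of 22746 probe sets. Since the wild type lies at background, the change has only a lower bound. Measured against the background limit of the wild type arrays, the mean of CYP71B34 was at least 6.34-fold higher in OsRR6ox. This bound makes no allowance for the spread between the OsRR6ox arrays. Without OsRR6ox replicate 1, the higher of the OsRR6ox pair, the difference was 3.12 and the call was lost (limma adjusted p = 0.0513).

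**Figure D1:**
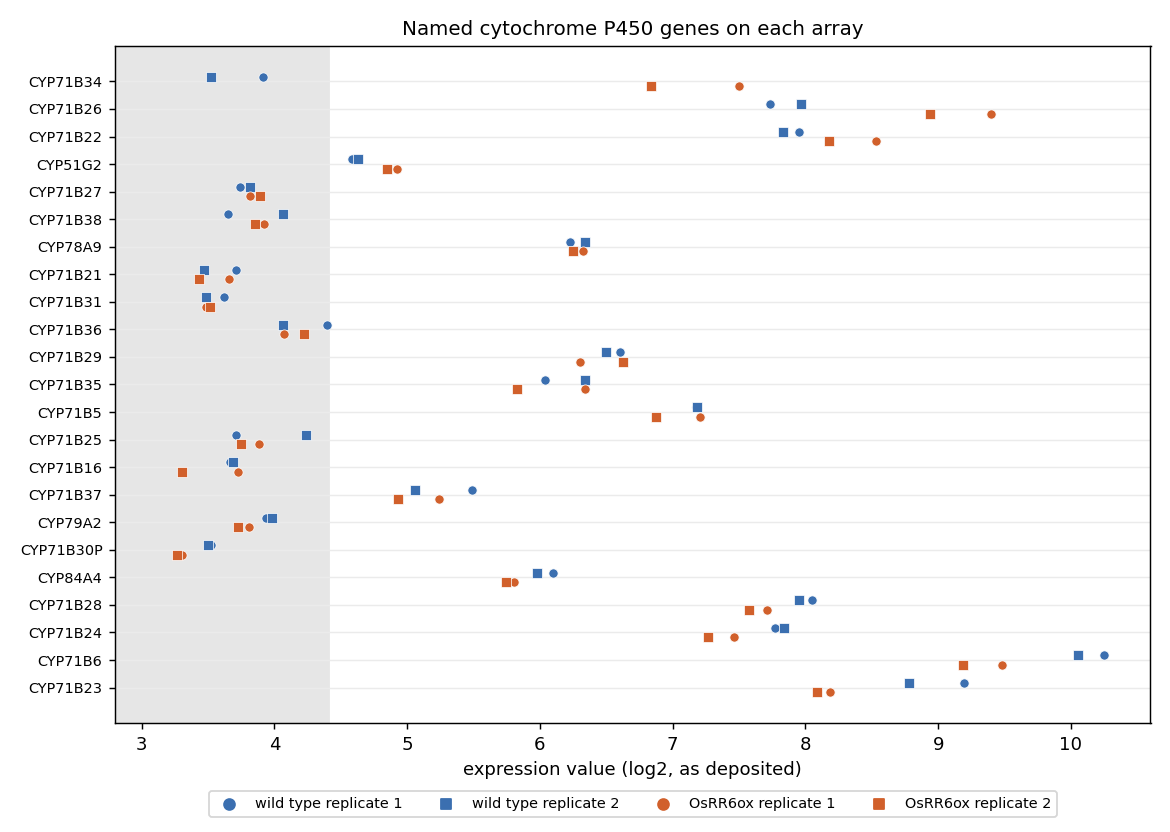
Expression values of the 23 P450 genes (log2, horizontal axis) on the 4 arrays, ordered from the largest rise to the largest fall, with wild type in blue and OsRR6ox in orange (circles replicate 1, squares replicate 2). The grey area ends at the lowest of the 4 array background limits, 4.41. CYP71B34 leaves that area in OsRR6ox, whereas 9 genes stay within it on all arrays.

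CYP71B26 (AT3G26290) read 7.73 and 7.97 in wild type seedlings against 9.40 and 8.94 in OsRR6ox. It was well above background on all 4 arrays, and both OsRR6ox arrays were above both wild type arrays. The difference was 1.32 with a standard error of 0.20 (95% interval 0.81 to 1.83), and it fell short of the threshold (limma adjusted p = 0.0632). It stood 207th by rise among all probe sets. With medians of the arrays set equal the same gene passed, at 1.32 (limma adjusted p = 0.0365). With the replicate number as a block it did not (limma adjusted p = 0.126), and without OsRR6ox replicate 1 the difference was 1.09.

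CYP71B22 (AT3G26200) read 7.96 and 7.83 in wild type seedlings against 8.53 and 8.17 in OsRR6ox. The genotypes did not overlap, but the OsRR6ox arrays differed from each other by 0.36, close to the difference of 0.46 between genotypes. It did not pass (limma adjusted p = 0.302).

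Lower values in OsRR6ox were led by CYP71B23 and CYP71B6. CYP71B23 (AT3G26210) read 9.20 and 8.78 in wild type seedlings against 8.18 and 8.08 in OsRR6ox, a difference of -0.86 with a standard error of 0.18 (limma adjusted p = 0.118). CYP71B6 (AT2G24180), an enzyme of indole metabolism that converts indole-3-acetonitrile to indole carbaldehyde and indole carboxylic acid, read 10.25 and 10.05 in wild type seedlings against 9.48 and 9.19 in OsRR6ox. Its difference was -0.82 with a standard error of 0.16 (limma adjusted p = 0.108). In both genes all OsRR6ox arrays lay below all wild type arrays, by more than the gap between replicates. Their 95% intervals, -1.31 to -0.40 for CYP71B23 and -1.22 to -0.41 for CYP71B6, leave out 0, but neither gene passed after adjustment over all probe sets.

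CYP71B24 (AT3G26230) read 7.77 and 7.84 in wild type seedlings against 7.46 and 7.27 in OsRR6ox, a difference of -0.44 (limma adjusted p = 0.237). CYP71B28 (AT1G13090) read 8.05 and 7.95 against 7.71 and 7.58, a difference of -0.36 (limma adjusted p = 0.301). Both were lower on every OsRR6ox array, and neither passed. Without adjustment 7 of 23 genes had p under 0.05 (limma), CYP71B34, CYP71B26 and CYP71B22 as higher and CYP71B6, CYP71B23, CYP71B24 and CYP71B28 as lower. Over all probe sets 15.0% had such a p, 6.75% as higher and 8.23% as lower.

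**Figure D2:**
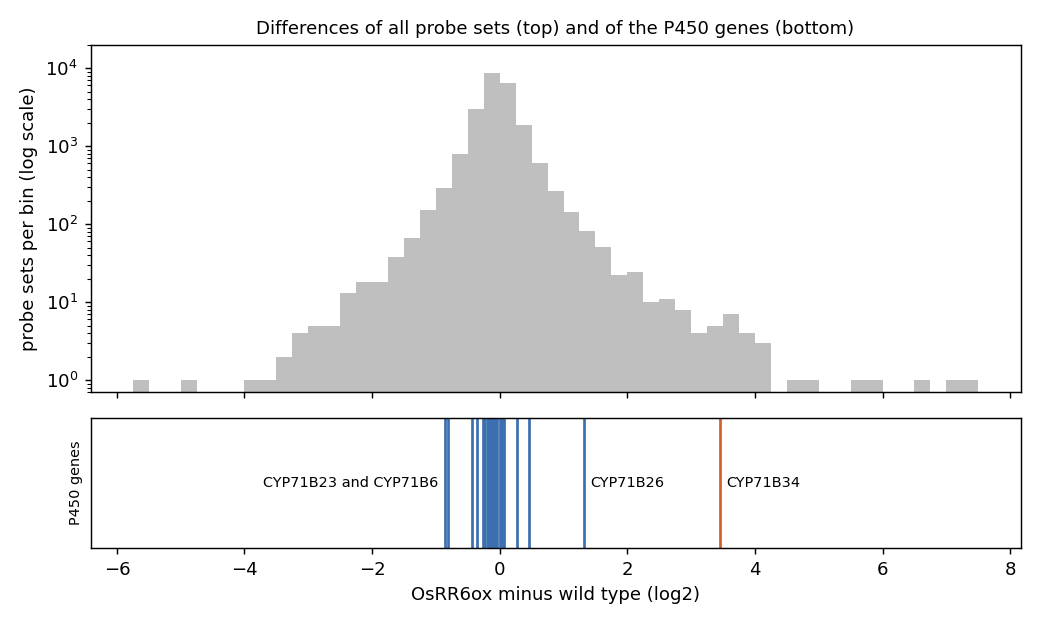
Top, number of probe sets (log scale) by difference between OsRR6ox and wild type (log2, bins of 0.25). Bottom, the 23 P450 genes as ticks, with the gene that passed in orange; most ticks lie near 0, with CYP71B26 at 1.32 and CYP71B34 at 3.45 to the right.

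Position set the CYP71B genes in 3 groups, taken from the gene order of the TAIR10.1 table. The largest run lies on chromosome 3 and goes from CYP71B16 to CYP71B37 over 24 genes. It holds 18 P450 genes, of which the annotation gives 11 as the single gene of a probe set. The other 7 are not so given and have no value here (CYP71B17, CYP71B18, CYP71B19, CYP71B20, CYP71B3, CYP71B4 and CYP71B33). The 3 genes with a higher mean in OsRR6ox were CYP71B22, CYP71B26 and CYP71B34. CYP71B22 lies apart from the others, while CYP71B26 and CYP71B34 are separated only by CYP71B33, which the table gives as a transcribed pseudogene.

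Differences varied from gene to gene along this run. CYP71B25, separated from CYP71B26 by CYP71B4, which has no value here, differed by -0.16 with values at background on all arrays. CYP71B35, the next gene after CYP71B34, read 6.04 and 6.34 in wild type seedlings against 6.34 and 5.83 in OsRR6ox, a difference of -0.10 (95% interval -0.66 to 0.46). This interval does not reach the lower bound of the rise of CYP71B34, 2.67 on the log2 scale. Beyond it CYP71B36, at background, differed by -0.08 and CYP71B37 by -0.19, with overlapping genotypes in both. At the other end CYP71B16 and CYP71B21 lay at background on all arrays and differed by -0.16 and -0.05. CYP71B22 and CYP71B23, which are next to each other, differed in opposite directions, by 0.46 and -0.86. The median over the 11 genes of the run was -0.10. Of the genes other than P450s within 3 places of either end, 2 had values, and they differed by -0.05 and 0.09.

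**Figure D3:**
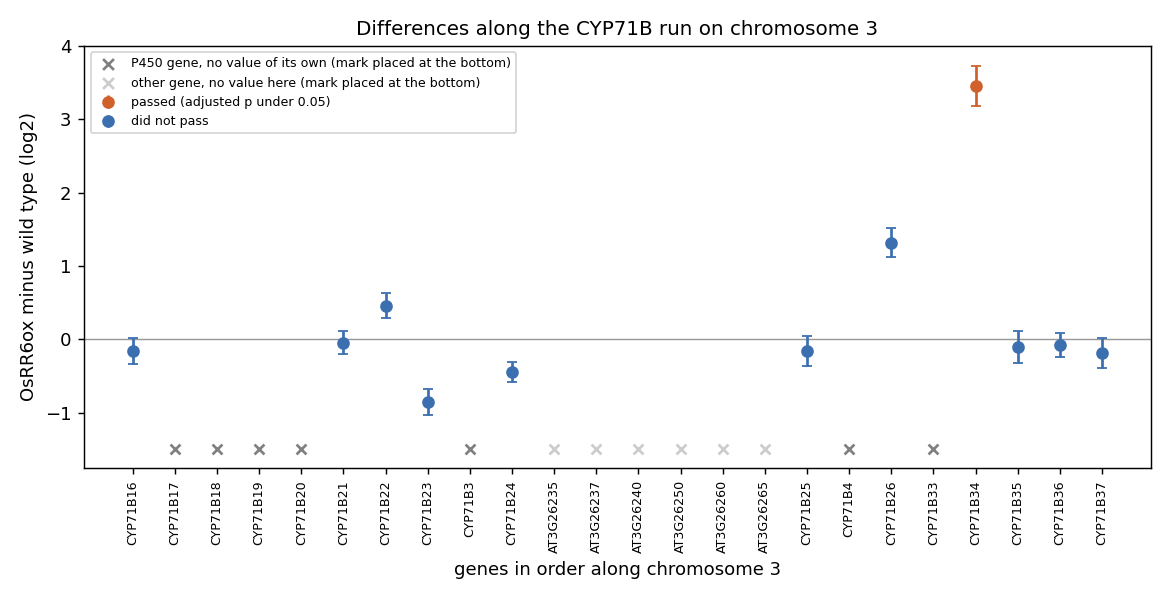
Difference between OsRR6ox and wild type (log2, vertical axis, bars are standard errors of the fit) for the 24 genes in order along the CYP71B run of chromosome 3. CYP71B34 at 3.45 and CYP71B26 at 1.32 stand above measured neighbours that differ by -0.19 to -0.08, and crosses mark genes without a value of their own.

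A second group on chromosome 3, CYP71B5, CYP71B30P and CYP71B31, had lower means in OsRR6ox in all 3 genes, with differences of -0.23 to -0.05, and 0 passed. CYP71B31, an oxygenase of the monoterpene alcohol linalool in flowers, lay at background on all arrays and differed by -0.05. CYP71B30P, whose name marks it as a pseudogene although the table lists it as protein-coding, was also at background, at 3.52 and 3.50 in wild type seedlings against 3.30 and 3.27 in OsRR6ox. CYP71B5 read 7.17 and 7.18 against 7.21 and 6.88, so that its genotypes overlapped. CYP71B32, the gene after CYP71B31, has no value here. The third group, on chromosome 1, held CYP71B27 at 0.07, a transcribed pseudogene at background, CYP71B28 at -0.36 and CYP71B29 at -0.09. CYP71B2, within that group, and CYP71B7, the gene after CYP71B29, have no value here. CYP71B38, which lies apart on chromosome 3, was at background and differed by 0.03.

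The 4 genes of other families did not pass either. CYP84A4, which acts in the synthesis of arabidopyrones, pyrone compounds derived from phenylpropanoids, read 6.10 and 5.98 in wild type seedlings against 5.81 and 5.75 in OsRR6ox, a difference of -0.26 (limma adjusted p = 0.414). CYP51G2, a relative of the sterol demethylase gene CYP51G1 that the table gives as a transcribed pseudogene, read 4.59 and 4.63 against 4.92 and 4.84, a difference of 0.28 (limma adjusted p = 0.381). In both genes the genotypes did not overlap, but the wild type values of CYP51G2 lay close to the background limits (4.41 to 4.52). CYP79A2, which turns phenylalanine into its oxime on the way to benzylglucosinolate, was at background on all arrays and differed by -0.19. CYP78A9, a relative of the organ size gene KLU that acts on seed and fruit growth, read 6.22 and 6.34 against 6.33 and 6.25. Its difference was 0.01 with a 95% interval of -0.32 to 0.33, so a change of that gene of 2-fold or more lay outside the interval.

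Most enzymes with better known roles were not given as the single gene of a probe set, so they have no value here. Lists for P450 enzymes of phenylpropanoids, brassinosteroids, abscisic acid breakdown, gibberellin, cytokinin, jasmonate, strigolactone, cutin and wax, carotenoids, sterols and triterpenes had 0 members so named. The glucosinolate and camalexin list had 1 of 18, CYP79A2, and the organ size list 1 of 6, CYP78A9. Of 15 names of genes that hand electrons to P450 enzymes 0 were given as the single gene of a probe set. Of 37 P450 names of another form 1 was found as a symbol, LCR. The gene under that symbol read 8.88 and 8.63 in wild type seedlings against 8.66 and 8.50 in OsRR6ox. It did not pass (limma adjusted p = 0.664). The P450 known as LCR acts in cutin synthesis, but the cutin list, which holds that P450 and was matched on synonyms too, had 0 members. Whether the gene read under the symbol LCR is a P450 was therefore not established. The counts on those lists thus say nothing about the pathways, or about whether the array read these genes.

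The median difference over the 23 genes was -0.10 (quartiles -0.21 and 0.02), beside -0.04 over all probe sets (quartiles -0.20 and 0.11). Of the 23 genes 16 had a lower mean in OsRR6ox, or 69.6%, beside 57.7% of all probe sets. The arrays of the genotypes did not overlap in 11 of 23 genes, or 47.8%, beside 46.1% of all probe sets. A difference of at least 2-fold was measured in 2 genes, CYP71B34 and CYP71B26, or 8.70%, beside 3.10% of all probe sets.

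Many of the genes were dim. On all 4 arrays 9 of 23 (39.1%) lay at background, beside 21.8% of all probe sets, and 13 lay above it throughout. CYP71B34 was the only one that was at background in a single genotype. The 9 dim genes differed by -0.23 to 0.07 with values of 3.27 to 4.39, a range in which a change of transcript level may not be seen. The 13 genes above background differed by -0.86 to 1.32, 4 with a higher and 9 with a lower mean, and a median of -0.14. In 8 of these 13 (61.5%) the genotypes did not overlap, beside 45.6% of all probe sets above background on 4 arrays.

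Replicates of one genotype were close in most of the genes. The median gap between replicates over the 23 genes was 0.12 in the wild type and 0.15 in OsRR6ox, beside 0.18 and 0.15 over all probe sets. The widest gaps were 0.52 in the wild type, in CYP71B25, and 0.67 in OsRR6ox, in CYP71B34. In 11 of 23 genes the difference between genotypes was larger than both gaps, or 47.8%, beside 33.8% of all probe sets. An exact permutation test on 1 gene cannot give a two-sided p below 0.333 with 2 arrays a genotype, so the tests rest on the spread that limma shares across probe sets.

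How the 4 most different genes fared under other settings is shown in the plot of settings. CYP71B34 differed by 3.12 to 3.94 over all settings run and passed in all but the one without OsRR6ox replicate 1. CYP71B26 differed by 1.09 to 1.81 and passed in 4 settings. CYP71B6 and CYP71B23 kept a lower mean in OsRR6ox throughout and passed in none. Centring on the spike-in controls moved the median of all probe sets from -0.04 to 0.45 and the P450 median to 0.39. Under it rises made up 3218 of 3396 calls, beside 185 of 296 as deposited, and 21 of the 23 P450 genes had a higher mean in OsRR6ox, so the direction of the small differences depends on the scaling. That centring shifts all probe sets of an array alike, so CYP71B34 and CYP71B26 stayed above the median of all probe sets, and CYP71B6 and CYP71B23 below it.

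**Figure D4:**
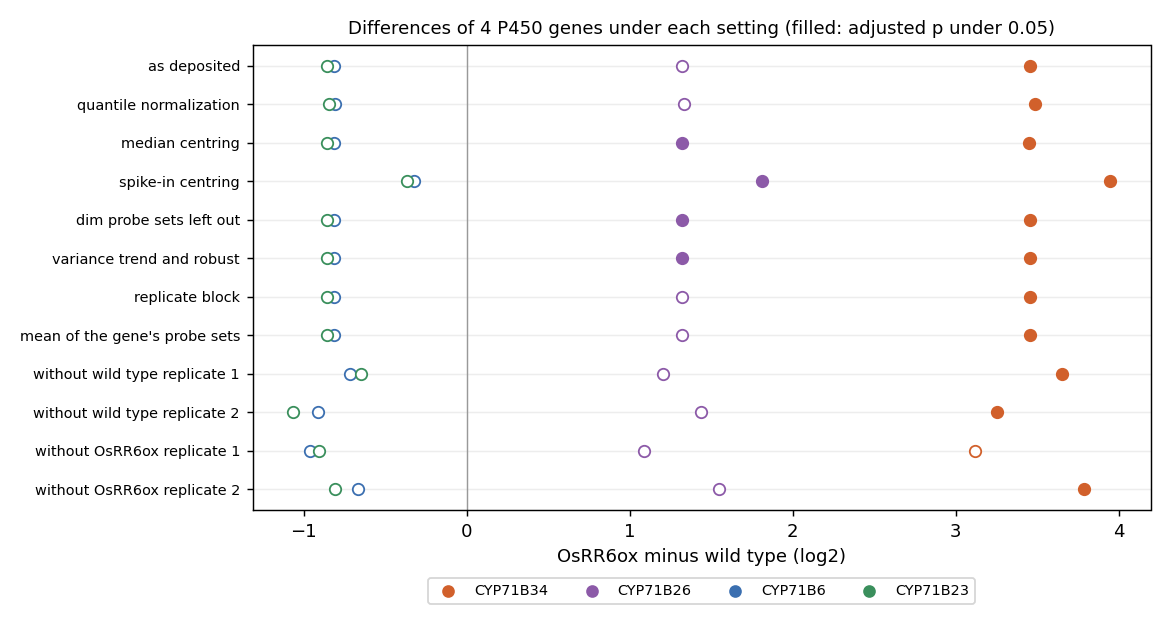
Difference between OsRR6ox and wild type (log2, horizontal axis) of 4 P450 genes as deposited and under 11 other settings (rows); filled points passed (limma adjusted p under 0.05). CYP71B34 stays between 3.12 and 3.94 and CYP71B6 and CYP71B23 stay below 0.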

How the data were processed

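The values are log2 expression levels deposited by the authors for 22810 probe sets on 4 arrays, made from biotin-labelled total RNA per the labels' protocols. The submitters' processing notes name R 3.4.0. The methods of background correction, summarisation and normalization are stated in no source used here. Array controls (64) were left out, and array medians were 6.71 to 6.81. Genes came from the platform annotation, matched by gene identifier to TAIR10.1 for all 23 P450 genes. All 23 probe sets have plain names without a suffix for shared sequence. Probe sequences were not used here, so cross-hybridisation between relatives was not tested.

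OsRR6ox was compared with wild type in R 4.3.3 by the moderated test of limma 3.58.1 (two-sided, Benjamini-Hochberg over 22746 probe sets, threshold 0.05). The code was tested on simulated data. Array background means the dimmest 25% of an array's probe sets (limits 4.41 to 4.52). The number of arrays limits the precision (median residual SD 0.145). All genes that passed, the largest rises and falls and the members of fixed lists were named. Genes, lists and tests were chosen with earlier results of these data known. Alternatives were quantile normalization, centring on medians or on 45 spike-in controls, leaving out dim probe sets, another variance model, a replicate block, averaging probe sets and leaving out each array. With an array left out, the lone array of a genotype was assumed to vary like the other genotype.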

Additional observations from a re-analysis of the deposited data

Results flagged for a closer look

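CYP718 carries no subfamily letter and so fell outside the comparisons. It was higher on both OsRR6ox arrays (7.76 and 7.99) than on both wild type arrays (7.35 and 7.02). The difference was 0.70 with a standard error of 0.17, and it did not pass over all probe sets (limma adjusted p = 0.163).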

How the results depend on the processing

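As deposited 296 probe sets and 1 P450 gene passed. The number of probe sets was 492 with median centring, 3396 with spike-in centring, 105 with the replicate number as a block (replicate block) and 45 to 465 with 1 array left out. The number of P450 genes was 2 with median centring, with dim probe sets left out and with a variance trend, CYP71B26 joining CYP71B34 in each. It was 4 with spike-in centring, with CYP71B22 and CYP51G2 as well, and 0 to 1 with 1 array left out. CYP71B34 kept its call under the replicate block (limma adjusted p = 0.0241). Same-numbered arrays deviated together with r = 0.259 across probe sets, but no label says that the numbers pair them. The median of the P450 genes was 0.39 with spike-in centring and -0.23 to -0.03 with 1 array left out. The spike-in means were 8.45 and 8.76 in wild type seedlings against 8.13 and 8.11 in OsRR6ox, so that reference itself varied between wild type replicates. Without wild type replicate 2 there were 465 calls, without OsRR6ox replicate 1 there were 51 and without OsRR6ox replicate 2 there were 45.

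Only genes short of the threshold changed direction. With quantile normalization CYP71B36 differed by 0.0051 and CYP71B21 by 0.0074. With spike-in centring CYP84A4 differed by 0.23, CYP79A2 by 0.30, CYP71B30P by 0.26, CYP71B5 by 0.35, CYP71B31 by 0.44, CYP71B35 by 0.39, CYP71B36 by 0.41, CYP71B37 by 0.31, CYP71B24 by 0.051, CYP71B25 by 0.33, CYP71B16 by 0.33, CYP71B21 by 0.44, CYP71B28 by 0.14 and CYP71B29 by 0.40. With 1 array left out the ranges that crossed 0 were -0.053 to 0.064 for CYP78A9, -0.12 to 0.017 for CYP71B31, -0.18 to 0.24 for CYP71B38, -0.24 to 0.088 for CYP71B36, -0.40 to 0.029 for CYP71B37, -0.17 to 0.075 for CYP71B21, -0.36 to 0.16 for CYP71B35, -0.42 to 0.10 for CYP71B25, -0.25 to 0.074 for CYP71B29, -0.30 to 0.028 for CYP71B5 and -0.37 to 0.044 for CYP71B16. The cause was not tested.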

Other observations

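OsRR6ox replicate 1 read higher than replicate 2 in 19 of the 23 P450 genes, beside 56.3% of all probe sets. The median of replicate 1 minus replicate 2 was 0.13 over the P450 genes and 0.03 over all probe sets. In the wild type replicate 1 was the higher in 12 of the 23. Of the probe sets annotated to several genes, 2 list P450 genes among them and were left out by the rule. They differed by -0.26 and -0.51 and did not pass (limma adjusted p = 0.417 and adjusted p = 0.325).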
